A study of Mus musculus with 6 samples.

Results

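The genes described here are the IGF ligand Igf1, the receptors Igf1r and Igf2r, and the binding protein genes Igfbp2, Igfbp3, Igfbp4, Igfbp5, Igfbp6 and Igfbp7. They were found by their gene symbols in the table of 17924 genes, and all 9 of 9 were present. RNA-seq was performed on dermal fibroblasts that had been isolated from the dorsal skin of newborn (P0) mice on a C57BL/6J background and held in adipocyte differentiation medium for 14 days. CTL cells carried Pdgfra-Cre with either Nelfb fl/wt or Nelfb wt/wt, and the labels do not say which of these each CTL library was. Nelfb-/- cells carried Pdgfra-Cre with Nelfb fl/fl, so that both groups shared the Cre. Cre from the Pdgfra promoter acts in cells that express or have expressed Pdgfra, which include dermal fibroblasts and adipocyte progenitors. Nelfb encodes a subunit of NELF, the complex that holds RNA polymerase II paused shortly after the start of transcription. There were 3 CTL and 3 Nelfb-/- libraries, given as biological triplicates. Cultures of this kind hold several cell types, and in bulk RNA fewer cells of a type and less RNA per cell cannot be told apart.

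IGF1 is a secreted growth factor that signals through the receptor tyrosine kinase IGF1R to the PI3K, AKT and mTOR pathway and to the RAS and ERK pathway, and in preadipocytes this signal is part of what adipogenic media deliver through insulin. IGF2R has no kinase: it takes up IGF2 for degradation and carries lysosomal enzymes tagged with mannose 6-phosphate. The IGF binding proteins hold IGFs in the extracellular space and can block or prolong their action, with IGFBP7 a relative of low affinity for IGFs. Fibroblasts, macrophages and adipocytes are all known sources of Igf1.

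Levels are in CPM, meaning that the reads of each gene were set against 1000000 reads over the table, and they are not divided by gene length unless stated. The libraries held 17.2 to 29.4 M reads (M, 1e+06), at which 3 reads, taken as the floor of detection, were worth 0.102 to 0.175 CPM. Nelfb was at 17.3 to 22.3 CPM in CTL and at 3.90 to 5.55 CPM in Nelfb-/- cells (log2 fold change -1.99, SE 0.22, adjusted p = 0.0050 in limma). Sums over marker lists showed how the libraries differed in the marker RNA of several cell types. The 12 macrophage markers summed to 281 to 896 CPM in CTL and 2354 to 7485 CPM in Nelfb-/- cells. Of these 12, 10 passed the test described below, all upward, where 7.58% of all genes tested passed upward. The 10 adipocyte markers summed to 23948 to 41067 CPM in CTL and 16126 to 24307 CPM in Nelfb-/- cells, so none of the libraries lacked adipocyte RNA. Fabp4 and Lpl made up most of that sum, with means of 15458 and 8986 CPM in CTL. Of the 10 markers 8 were lower on average in Nelfb-/- cells, and the median log2 fold change of the 10 was -0.91. Among those that were lower, Retn passed (368 to 81.0 CPM on average). The 2 that were higher were Lep, which passed (0.865 to 25.3 CPM), and Cidec, which overlapped (2591 and 2730 CPM). The 11 fibroblast and preadipocyte markers split the libraries otherwise, with 4495 and 3902 CPM in CTL replicates 1 and 2, 14113 CPM in CTL replicate 3, 6688 CPM in Nelfb-/- replicate 1, and 20681 and 23159 CPM in Nelfb-/- replicates 2 and 3. CTL replicate 3 therefore lay nearer to Nelfb-/- replicates 2 and 3 than to the other CTL libraries on that sum. Most of the sum came from the collagen genes Col1a1 and Col1a2, at 7343 and 5043 CPM in CTL replicate 3. Not every marker shared this split, since Dcn was lowest in CTL replicate 3, at 310 CPM, and Pdgfra was at 219 to 444 CPM in CTL and 476 to 509 CPM in Nelfb-/- cells. Skeletal muscle markers (9.55 to 11.3 against 56.4 to 109 CPM) and melanocyte and Schwann cell markers (19.0 to 22.8 against 108 to 123 CPM) were also higher in Nelfb-/- cells. Myod1, Ckm, Mlana and Tyr were at or under the floor in every CTL library. All 6 muscle markers tested passed upward, as did 6 of the 7 melanocyte and Schwann cell markers tested. Endothelial (7.85 to 12.1 against 9.20 to 23.5 CPM) and smooth muscle markers (891 to 1293 against 576 to 1517 CPM) overlapped between the groups, and keratinocyte markers summed to 1.94 to 2.48 against 3.89 to 13.3 CPM. CTL replicate 1 held 7.76 CPM of 4 Y-linked genes, where the other 5 libraries held 162 to 264 CPM. Xist, which female cells express, reached 771, 29.8 and 15.3 CPM in the CTL libraries, by replicate number, but only 0.43, 0.12 and 0.20 CPM in the Nelfb-/- libraries, so the groups did not overlap. The part of sex in the differences below was not tested.

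The sequences before the start sites are shown for Igfbp3, Igfbp5 and Igfbp4, whose values did not overlap between the genotypes, and for Igfbp2, the neighbour of Igfbp5, since NELF acts near start sites. The sequences were read from RefSeq (GRCm38.p6), run 5′ to 3′ on the strand of the gene, cover 100 bases each, and end at the base before the start. The start is that of the gene in the annotation for Igfbp3, Igfbp4 and Igfbp5 and the RefSeq start for Igfbp2. Capitals mark motif matches on either strand. For Igfbp4 they mark TATAAA, the letters of the TATA box. For Igfbp3 they mark TATATA and for Igfbp5 they mark TTTAAA, related hexamers that were added to the search after the sequences had been seen. For Igfbp2 they mark the core letters of the GC box, which are GGGCGG.
Igfbp3, chr11:7213924-7214023, minus strand: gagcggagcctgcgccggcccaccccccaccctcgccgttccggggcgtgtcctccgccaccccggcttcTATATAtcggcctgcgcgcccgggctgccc
Igfbp5, chr1:72874885-72874984, minus strand: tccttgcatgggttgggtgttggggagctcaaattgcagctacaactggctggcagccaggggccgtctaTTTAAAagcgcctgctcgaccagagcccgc
Igfbp4, chr11:99041144-99041243, plus strand: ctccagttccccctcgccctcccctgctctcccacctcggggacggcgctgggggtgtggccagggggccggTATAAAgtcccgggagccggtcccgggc
Igfbp2, chr1:72824380-72824479, plus strand: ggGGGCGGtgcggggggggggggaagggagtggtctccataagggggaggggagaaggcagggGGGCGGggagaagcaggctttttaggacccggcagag

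Igfbp3, Igfbp5 and Igfbp4 each held an AT-rich, TATA-like hexamer that began 30, 30 and 28 bases before the annotated start, in that order. The RefSeq start of Igfbp5 lies inside the annotated gene, and from there the hexamer of Igfbp5 begins at position -49. Igfbp6 also held TATAAA, farther off at position -148 from its RefSeq start, and the other 5 genes held none of the 3 AT-rich hexamers in their 250 bases. Igfbp2 held no such hexamer there and had 3 matches to the GC box core in its 250 bases. Among the 32851 promoter windows of 250 bases in the RefSeq table, 24.6% held at least 1 of the 3 AT-rich hexamers anywhere in the window and 32.7% held GGGCGG. The same GC box letters were also found 2 times for Igf1r, 3 times for Igf2r and 4 times for Igfbp7, and not for Igf1, Igfbp3, Igfbp4, Igfbp5 or Igfbp6. The windows of Igf1r and Igfbp3 held 42 and 32 CpG dinucleotides, against a median of 6 over all windows. The RefSeq window of Igf1 lay inside the gene as annotated and is not shown. These matches describe the letters and were not tested as sites.

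Of the 9 genes, 6 were higher and 3 were lower on average in Nelfb-/- than in CTL cells. Differential expression was tested with limma over all 16252 genes with enough reads, and the limits for a call were an adjusted p of 0.05 and a 2-fold change. Igf1 and Igfbp3 passed, both upward, and 7 of the 9 genes did not pass. By comparison 11.2% of all genes tested passed, 7.58% upward and 3.64% downward. The median log2 fold change of the 9 genes was 0.50, beside 0.068 over all genes tested. The 3 Nelfb-/- libraries lay entirely above the 3 CTL libraries for Igf1, Igfbp3 and Igfbp5 and entirely below them for Igfbp4, thus for 4 of 9 genes, where 38.1% of all genes tested had groups that did not overlap. All 9 genes held at least 602 reads in every library. An exact permutation test of 1 gene with 3 against 3 libraries cannot give a p below 0.1, so the p-values below are those of limma.

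**Figure D1:**
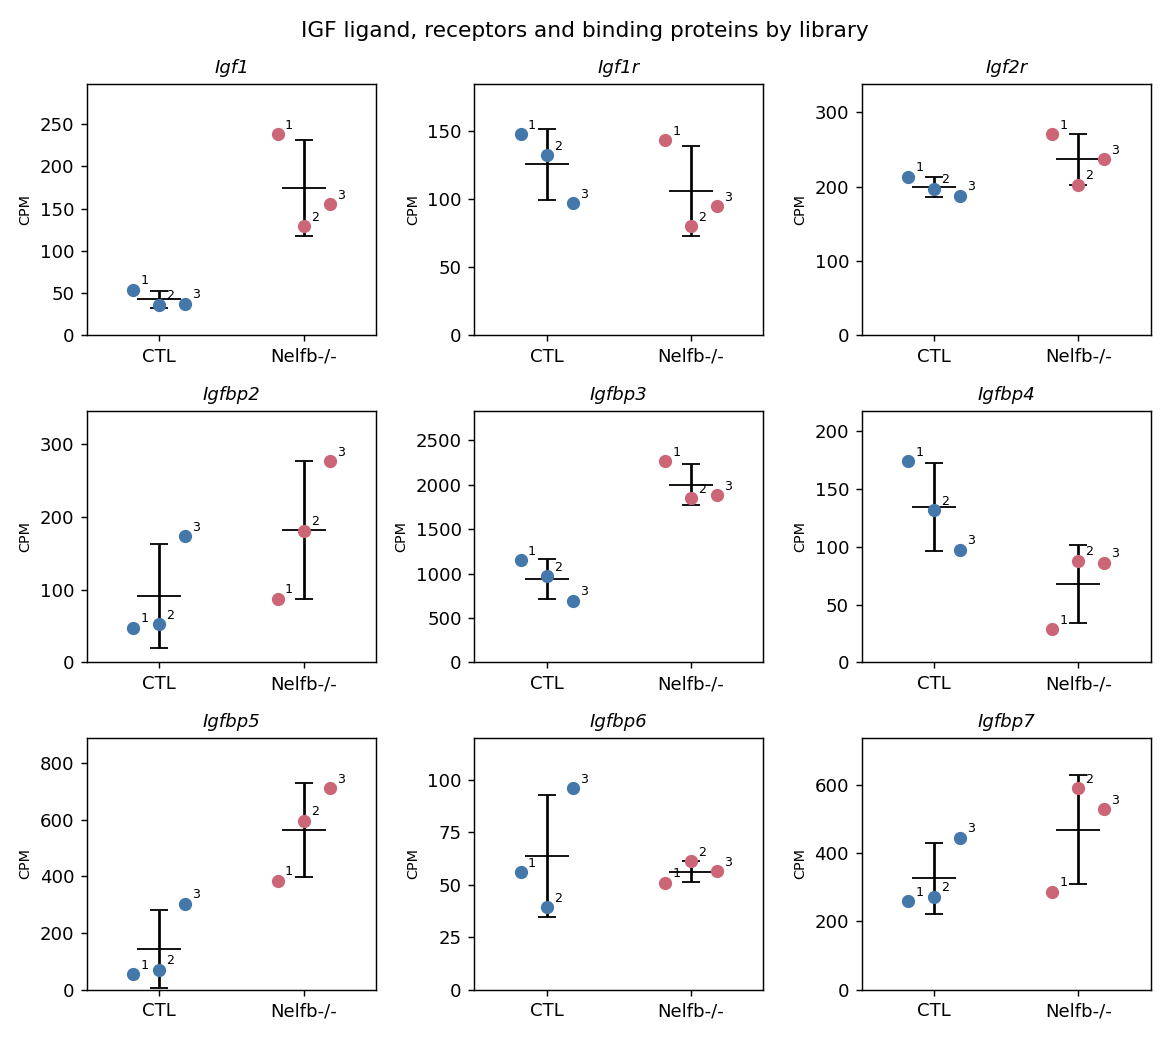
Expression of the 9 genes in CPM (vertical axis of each panel, starting at 0) in the 3 CTL and 3 Nelfb-/- libraries, with 1 point for each library and a bar for the mean. Igf1 and Igfbp3 were higher in all Nelfb-/- libraries, Igfbp5 spread from 55.4 to 303 CPM in CTL, and Igf1r, Igf2r, Igfbp2, Igfbp6 and Igfbp7 overlapped between the groups.

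Igf1 (ENSMUSG00000020053, chromosome 10 from 87858265 to 87937042, plus strand, GRCm38), the ligand, was at 54.1, 36.0 and 37.2 CPM in CTL replicates 1, 2 and 3. It was at 238, 129 and 155 CPM in Nelfb-/- replicates 1, 2 and 3. The lowest Nelfb-/- library thus exceeded the highest CTL library, and the mean rose from 42.4 ± 10.1 to 174 ± 57.0 CPM (SD, n = 3), a ratio of 4.11. Its log2 fold change was 2.01 (SE 0.27, 95% interval 1.36 to 2.67, adjusted p = 0.0081 in limma). Igf1 still passed when any of the 6 libraries was left out, with log2 fold changes from 1.76 to 2.21. Igf1os, which is antisense to Igf1, held at most 11 reads in any library. Macrophage markers moved with it. Their sum followed the order Nelfb-/- replicate 1, replicate 3, replicate 2 (7485, 3988 and 2354 CPM), which is also the order of Igf1 among those libraries. In CTL the marker sums were 896, 497 and 281 CPM in replicates 1, 2 and 3, and Igf1 was likewise highest in replicate 1, while between replicates 2 and 3 it did not fall with the markers (36.0 and 37.2 CPM). The ratio of the mean macrophage sums was 8.26 and none of the 12 markers was at 0 in CTL. The skeletal muscle sum ranked all 6 libraries as Igf1 did. It was 109, 61.3 and 56.4 CPM in Nelfb-/- replicates 1, 3 and 2. In CTL replicates 1, 3 and 2 it was 11.31, 11.29 and 9.55 CPM. The endothelial sum also ran 1, 3, 2 among the Nelfb-/- libraries (23.5, 11.4 and 9.20 CPM). The part of any of these cell types in the Igf1 difference was not tested.

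Genes whose levels followed Igf1 most closely over the 6 libraries were, by Pearson correlation of log2 values, AB124611 (r = 0.999), Irf5 (0.998), Gdpd5 (0.998), Clec4a3 (0.997) and Plcg2 (0.997). These coefficients describe 6 libraries that fall into 2 genotypes. Irf5, a transcription factor of the interferon pathway in myeloid cells, was at 7.20, 4.58 and 5.11 CPM in CTL and at 36.5, 20.9 and 26.0 CPM in Nelfb-/- cells. Plcg2, a phospholipase of blood cells, was at 1.76, 0.98 and 1.16 CPM and at 15.2, 6.81 and 10.2 CPM in the same order. All 5 passed upward, with log2 fold changes from 2.01 to 3.63, which their choice by likeness to Igf1 largely fixed.

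Igf1r (ENSMUSG00000005533, chromosome 7 from 67952827 to 68233668, plus strand), the receptor kinase for IGF1, was at 147, 132 and 96.8 CPM in CTL and at 143, 80.1 and 94.4 CPM in Nelfb-/- cells. The groups overlapped, and CTL replicate 3 lay beside Nelfb-/- replicates 2 and 3, as it did for the fibroblast markers. The log2 fold change was -0.27 (SE 0.26, 95% interval -0.90 to 0.37, adjusted p = 0.53 in limma). The interval leaves room for a loss of close to 2-fold, so equal levels are not shown.

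Igf2r (ENSMUSG00000023830, chromosome 17 from 12682406 to 12769664, minus strand), the IGF2 and mannose 6-phosphate receptor, was at 213, 197 and 188 CPM in CTL and at 271, 203 and 237 CPM in Nelfb-/- cells. Relative to the mean its CTL libraries were the least spread of the 9 genes, at 199.6 ± 12.9 CPM (SD, n = 3) against 237 ± 34.1 CPM. The groups overlapped through Nelfb-/- replicate 2, and the log2 fold change was 0.24 (SE 0.16, 95% interval -0.14 to 0.62, adjusted p = 0.34 in limma). The long noncoding RNA Airn, which is antisense to Igf2r and overlaps its 5′ part, was at 2.26 to 2.65 CPM in CTL and 3.96 to 4.93 CPM in Nelfb-/- cells (log2 fold change 0.79, adjusted p = 0.062 in limma). Strand handling is not given in the sources used here, so reads of Airn and Igf2r may not be separable where they overlap.

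**Figure D2:**
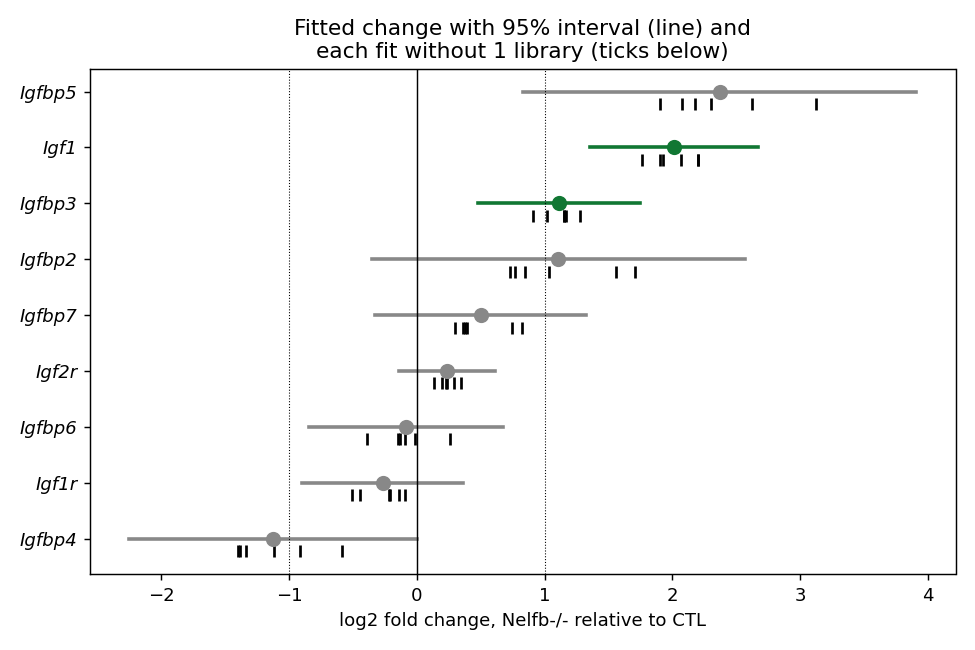
Log2 fold change of each of the 9 genes in Nelfb-/- relative to CTL cells (horizontal axis) with its 95% interval as a line and, as ticks below it, the value that each of 6 fits gave with a library removed. The intervals of Igf1, Igfbp3 and Igfbp5 lie above 0, and the widest are those of Igfbp5 and Igfbp2.

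Igfbp3 (ENSMUSG00000020427, chromosome 11 from 7206086 to 7213923, minus strand), the main IGF carrier in serum and a secreted product of fibroblasts, had the most reads of the 9 genes. It was at 1152, 969.6 and 696 CPM in CTL and at 2265, 1849.8 and 1879 CPM in Nelfb-/- cells. The mean rose from 939 ± 229.9 to 1998 ± 232 CPM (SD, n = 3), a ratio of 2.13, with the lowest Nelfb-/- library far above the highest CTL library. The log2 fold change was 1.11 (SE 0.27, 95% interval 0.48 to 1.75, adjusted p = 0.037 in limma). The call was narrow: it was lost in each of the 6 fits that left out a library, where the log2 fold change lay between 0.91 and 1.28 and the adjusted p between 0.039 and 0.13. Without CTL replicate 3 the adjusted p was 0.039 but the change was under 2-fold. Macrophage markers moved with Igfbp3 too. Their sum ranked all 6 libraries in the same order as Igfbp3, from Nelfb-/- replicates 1, 3 and 2 down to CTL replicates 1, 2 and 3, and its part in the Igfbp3 difference was not tested. The fibroblast marker sum did not follow this order.

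Igfbp5 (ENSMUSG00000026185, chromosome 1 from 72857932 to 72874884, minus strand), a matrix-bound IGF binding protein of mesenchymal cells, was at 55.4, 70.4 and 303 CPM in CTL and at 385, 597 and 711 CPM in Nelfb-/- cells. The groups did not overlap, though CTL replicate 3 lay nearer to Nelfb-/- replicate 1 than to the other CTL libraries. The means were 143 ± 139 and 564 ± 166 CPM (SD, n = 3), a ratio of 3.95 that was close to that of Igf1. With the wide spread in CTL the log2 fold change of 2.37 (SE 0.64, 95% interval 0.83 to 3.91) missed the threshold at an adjusted p of 0.053 in limma. Without CTL replicate 3 it was 3.13 with an adjusted p of 0.0049, and without any of the other 5 libraries it did not pass. Igfbp5 was lower in CTL replicates 1 and 2 than in the other 4 libraries, as was the fibroblast and preadipocyte marker sum, whose part in the difference was not tested.

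The genes that followed Igfbp5 most closely over the 6 libraries were Nipa2 (r = 0.9996), Rian (0.999), Trim9 (0.999), Isyna1 (0.998) and Cxcl1 (0.998). Rian, a maternally expressed noncoding RNA, was at 21.0, 26.7 and 119.9 CPM in CTL and at 175, 253 and 282 CPM in Nelfb-/- cells, and passed the test (log2 fold change 2.51, adjusted p = 0.045 in limma). The other 4 did not pass, with adjusted p between 0.056 and 0.075 in limma. The choice of these genes by likeness to Igfbp5 largely fixed such values. None of the genes closest to Igf1 was among those closest to Igfbp5, which the different library orders of Igf1 and Igfbp5 largely fixed.

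Igfbp2 (ENSMUSG00000039323, chromosome 1 from 72824503 to 72852474, plus strand), a binding protein that preadipocytes secrete, lies beside Igfbp5. The genes face each other end to end with 5458 bases between them. Igfbp2 was at 47.5, 53.0 and 174 CPM in CTL and at 87.7, 181 and 277 CPM in Nelfb-/- cells. As with Igfbp5, CTL replicates 1 and 2 were lowest and Nelfb-/- replicate 3 was highest, but here CTL replicate 3 exceeded Nelfb-/- replicate 1. The log2 fold change was 1.11 (SE 0.61, 95% interval -0.35 to 2.57, adjusted p = 0.26 in limma). Its mean change thus equalled that of Igfbp3 on the log2 scale, with an SE more than 2-fold that of Igfbp3. It passed in none of the 6 fits that left out a library. It was 1.71 without CTL replicate 3 (adjusted p = 0.056 in limma) and 1.56 without Nelfb-/- replicate 1 (adjusted p = 0.13 in limma). Without any of the other 4 libraries it was lower, from 0.73 without Nelfb-/- replicate 3 to 1.04 without Nelfb-/- replicate 2, with adjusted p from 0.44 to 0.57 in limma.

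Igfbp7 (ENSMUSG00000036256, chromosome 5 from 77349240 to 77408041, minus strand), the low-affinity relative, had the second most reads of the binding protein genes in CTL. It was at 259, 273 and 445 CPM in CTL and at 287, 589 and 528 CPM in Nelfb-/- cells. Nelfb-/- replicate 1 lay within the CTL range, and its log2 fold change stood at 0.50 (SE 0.34, 95% interval -0.32 to 1.33, adjusted p = 0.36 in limma). Its 3' end overlaps that of Polr2b, a subunit gene of RNA polymerase II, so reads there may be shared.

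Igfbp4 (ENSMUSG00000017493, chromosome 11 from 99041244 to 99054392, plus strand), an inhibitory binding protein that the protease PAPP-A cleaves, was the only one of the 9 genes with every Nelfb-/- library under every CTL library. It was at 174, 132 and 97.6 CPM in CTL and at 28.5, 87.9 and 86.0 CPM in Nelfb-/- cells. The gap between the groups was small, from 97.6 to 87.9 CPM, and Nelfb-/- replicate 1 lay far under the other libraries. The log2 fold change was -1.12 (SE 0.47, 95% interval -2.25 to 0.0026, adjusted p = 0.15 in limma), and it was -0.59 with an adjusted p of 0.15 without Nelfb-/- replicate 1. The adipocyte marker sum was also lowest in that library, at 16126 CPM, and highest in CTL replicate 1, at 41067 CPM, where Igfbp4 was highest. Its part in the difference was not tested.

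Igfbp6 (ENSMUSG00000023046, chromosome 15 from 102144362 to 102149511, plus strand), which prefers IGF2 over IGF1, was at 56.1, 39.2 and 96.1 CPM in CTL and at 51.1, 61.4 and 56.6 CPM in Nelfb-/- cells. The Nelfb-/- libraries lay within the range of the CTL libraries. The log2 fold change of -0.085 (SE 0.32, 95% interval -0.85 to 0.68, adjusted p = 0.88 in limma) changed sign to 0.26 without CTL replicate 3.

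**Figure D3:**
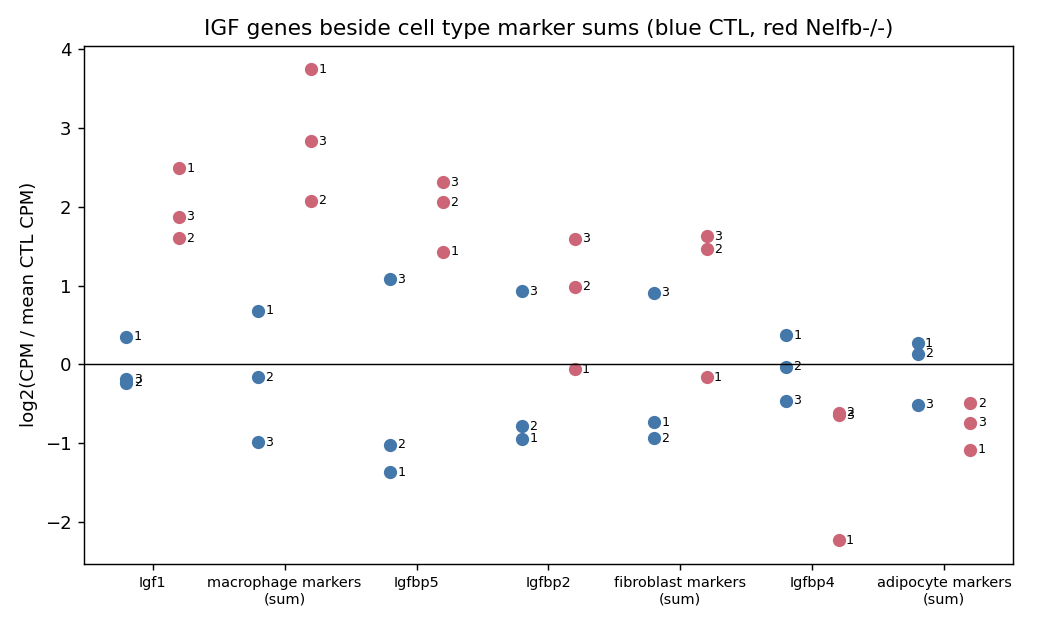
Igf1, Igfbp5, Igfbp2 and Igfbp4 beside the summed macrophage, fibroblast and adipocyte markers, as log2 of CPM over the mean CPM of CTL (vertical axis), with 1 point for each library numbered by replicate. Among the Nelfb-/- libraries Igf1 and the macrophage sum both run 1, 3, 2 from high to low. The skeletal muscle and endothelial sums, which are not drawn, run in the same order. CTL replicate 3 stands above CTL replicates 1 and 2 for Igfbp5, Igfbp2 and the fibroblast sum.

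To compare levels between genes, CPM was divided by the length of all merged exons of a gene in kb. That length can exceed the length of the transcripts present, so the order between genes is approximate. In CTL, Igfbp3 (300.0 ± 73.5 CPM per kb, SD, n = 3) and Igfbp7 (269 ± 85.8) stood above the rest, and their libraries overlapped. Igfbp6 (57.4 ± 26.2), Igfbp2 (49.5 ± 38.6), Igfbp4 (30.4 ± 8.67), Igfbp5 (23.8 ± 23.1) and Igf2r (21.4 ± 1.38) followed, each overlapping with the next. Igf1r (7.47 ± 1.55) and Igf1 (4.28 ± 1.02) were lowest and did not overlap with their neighbours in the order. Per kb of merged exons, the ligand was thus the lowest of the 9 genes in CTL cells. In Nelfb-/- cells the order was Igfbp3 (638 ± 74.0), Igfbp7 (387 ± 132), Igfbp2 (98.4 ± 51.1), Igfbp5 (94.0 ± 27.6), Igfbp6 (50.7 ± 4.63), Igf2r (25.5 ± 3.67), Igf1 (17.6 ± 5.75), Igfbp4 (15.3 ± 7.64) and Igf1r (6.30 ± 1.96). Igfbp2 and Igfbp5 overlapped, with Igfbp2 above Igfbp5 in 1 of 3 libraries, and from Igf2r down all neighbours in that order overlapped. Igf1 exceeded Igf1r in each Nelfb-/- library, at 24.1 against 8.52, 13.0 against 4.77 and 15.7 against 5.62 CPM per kb. It was below Igf1r in each CTL library, at 5.46 against 8.78, 3.64 against 7.87 and 3.75 against 5.77 CPM per kb.

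The 6 binding protein genes summed to 707.5, 641 and 843.5 CPM per kb in CTL and to 1125, 1351 and 1376 CPM per kb in Nelfb-/- cells, so the groups did not overlap. Igfbp3 made up 26.3 to 52.0% of the sum in CTL and 43.6 to 64.3% in Nelfb-/- cells, and Igfbp7 made up 30.3 to 43.7% and 21.1 to 36.1%. Both shares overlapped between the groups. The share of Igfbp4 was 2.62 to 5.57% in CTL and 0.575 to 1.47% in Nelfb-/- cells, and that of Igfbp6 was 5.51 to 10.2% and 3.70 to 4.08%. Neither of these overlapped. The share of Igfbp5 was 1.30, 1.83 and 5.98% in CTL and 5.70, 7.36 and 8.61% in Nelfb-/- cells, with CTL replicate 3 just above Nelfb-/- replicate 1. The binding protein sum was 129.5, 176 and 225 times the Igf1 level per kb in CTL and 46.8, 104 and 87.6 times in Nelfb-/- cells, the ligand having risen more than the sum of its binding protein transcripts. These are transcript levels, and no protein was measured.

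**Figure D4:**
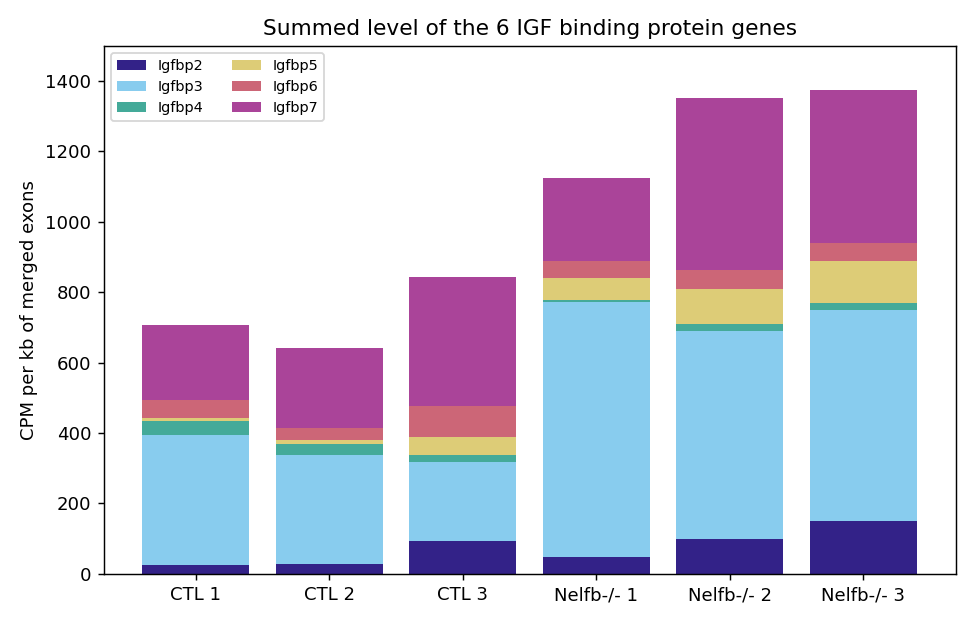
Stacked bars of the 6 binding protein genes in CPM per kb of merged exons (vertical axis, starting at 0) in each library. The sum reached 641 to 843.5 CPM per kb in CTL and 1125 to 1376 in Nelfb-/- cells, and Igfbp3 and Igfbp7 filled most of every bar.

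The wider IGF pathway was read from 7 lists with 85 genes, of which 78 were in the table and 77 were tested. In limma 5 passed (6.49%, against 11.2% of all genes tested), of which 4 rose and 1 fell, and the median log2 fold change was 0.093. The list of further ligands and insulin receptor family members had no gene past the threshold. Igf2, the fetal ligand, was at 38.2, 21.1 and 53.0 CPM in CTL libraries and at 38.0, 49.2 and 35.4 CPM in Nelfb-/- cells (adjusted p = 0.71 in limma). Insr, the insulin receptor, was at 368, 356 and 191 CPM and at 222, 123 and 127 CPM, with a log2 fold change of -0.95 (SE 0.34, adjusted p = 0.11 in limma). Igfals, the serum carrier subunit, had too few reads to be tested. Among 8 proteases of the binding proteins and their inhibitors, none passed and the median was -0.25. Pappa, the IGFBP4 protease, was at 149 CPM on average in CTL and 101 CPM in Nelfb-/- cells (adjusted p = 0.56 in limma). Ctsd, which encodes cathepsin D, was at 1081 and 2511 CPM (adjusted p = 0.086 in limma), and Adam12 was at 252 and 486 CPM (adjusted p = 0.28 in limma).

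Growth hormone induces Igf1 through its receptor, JAK2 and STAT5. In that list 1 of 6 genes passed, where 11.2% of all genes tested passed. Ghr, the growth hormone receptor, was at 323, 275 and 253 CPM in CTL and at 505, 646 and 610 CPM in Nelfb-/- cells. Its log2 fold change was 1.05 (SE 0.18, adjusted p = 0.014 in limma), and the call was lost without CTL replicates 2 or 3 or Nelfb-/- replicates 2 or 3, at 0.97 to 1.03 on the log2 scale and adjusted p from 0.020 to 0.077. It was also lost with median-of-ratios scaling, at a change of 0.98. Jak2 (log2 fold change 0.89, adjusted p = 0.0081 in limma) was under the 2-fold limit. Socs2, a target and inhibitor of this pathway, was at 18.1 to 27.6 CPM in CTL and 9.34 to 14.1 CPM in Nelfb-/- cells (log2 fold change -0.89, adjusted p = 0.054 in limma). Cish, another STAT5 target, overlapped between the groups (0.12, adjusted p = 0.64 in limma). Stat5a and Stat5b overlapped between the groups.

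The 12 genes of mannose 6-phosphate sorting, the other cargo route of IGF2R, were all higher on average in Nelfb-/- cells. Their median log2 fold change was 0.77, and in 8 of the 12 the groups did not overlap, beside 38.1% of all genes tested. Where 11.2% of all genes tested passed, only Man2b1, a lysosomal mannosidase, passed among the 12 (log2 fold change 1.08, adjusted p = 0.045 in limma). That call was lost without CTL replicates 1, 2 or 3 or Nelfb-/- replicates 1 or 3, with log2 fold changes from 0.80 to 1.20 and adjusted p from 0.042 to 0.14. It was also lost with median-of-ratios scaling (adjusted p = 0.055), without the abundance trend (0.066) and without moderation of the variance (0.13). Gnptab, which encodes the enzyme that adds the tag, had an adjusted p of 0.0066 in limma with a change of 0.96, under the 2-fold limit, and Nagpa was likewise under it (0.98, adjusted p = 0.032 in limma). Ctsb, which encodes cathepsin B, did not pass (log2 fold change 1.21, adjusted p = 0.10 in limma). The summed level of the list was highest in Nelfb-/- replicate 1, at 11633 CPM, the library with the highest macrophage sum. Lysosomal enzymes are abundant in macrophages, whose part in these values was not tested.

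Of the 29 genes between IGF1R and PI3K, AKT and mTOR, 12 were higher and 17 were lower on average, with a median of -0.16. In limma 1 passed upward and 1 downward, where 11.2% of all genes tested passed. Irs1, the docking protein that IGF1R and the insulin receptor phosphorylate, was at 137, 125 and 74.0 CPM in CTL and at 59.4, 49.1 and 50.7 CPM in Nelfb-/- cells. It fell by 1.03 on the log2 scale (SE 0.25, adjusted p = 0.038 in limma), and the call was lost without CTL replicates 1 or 2 or Nelfb-/- replicates 2 or 3, at adjusted p from 0.12 to 0.14. It was also lost without the abundance trend (adjusted p = 0.058) and without moderation of the variance (0.11). Inpp5d, a lipid phosphatase found mainly in blood cells, was at 7.94, 3.03 and 3.60 CPM and at 94.2, 26.4 and 44.6 CPM, in the same order of libraries as the macrophage sum among Nelfb-/- cells. Its log2 fold change was 3.43 (SE 0.55, adjusted p = 0.012 in limma), and it missed the threshold without CTL replicate 2 (adjusted p = 0.051), without Nelfb-/- replicate 3 (0.059) or without moderation of the variance (0.066). Of the 16 genes of the RAS and ERK branch none passed, and the median was -0.016. Grb2, the adaptor, had a log2 fold change of 0.83 (adjusted p = 0.018 in limma), under 2-fold, and Araf was at -0.72 (adjusted p = 0.062 in limma). Further genes of both branches had an adjusted p of 0.05 or less in limma but a change under 2-fold. Among these Pik3r3 (0.95) and Akt1 (0.64) were higher, and Eif4ebp1 (-0.80), Foxo1 (-0.79), Shc1 (-0.70) and Mapk3 (-0.58) were lower, as log2 fold changes.

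The CCN genes encode matrix proteins with a domain related to that of the IGF binding proteins, and all 5 that were tested were higher on average in Nelfb-/- cells, with a median log2 fold change of 1.82. Ccn5 was at 38.6, 37.2 and 72.3 CPM in CTL and at 169.7, 174 and 156 CPM in Nelfb-/- cells and passed (1.82, SE 0.27, adjusted p = 0.0098 in limma), although not without Nelfb-/- replicate 3 (adjusted p = 0.052) or without moderation of the variance (0.054). Ccn4 was at 13.3, 12.2 and 69.1 CPM and at 69.0, 211 and 283 CPM (2.84, adjusted p = 0.060 in limma). Ccn3 was at 11.5, 8.63 and 23.4 CPM and at 16.5, 101 and 132 CPM (2.18, adjusted p = 0.12 in limma). Ccn4 and Ccn3 ranked the 6 libraries in the same order as the fibroblast marker sum, with CTL replicate 3 above Nelfb-/- replicate 1, and the part of that sum in their values was not tested.

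**Figure D5:**
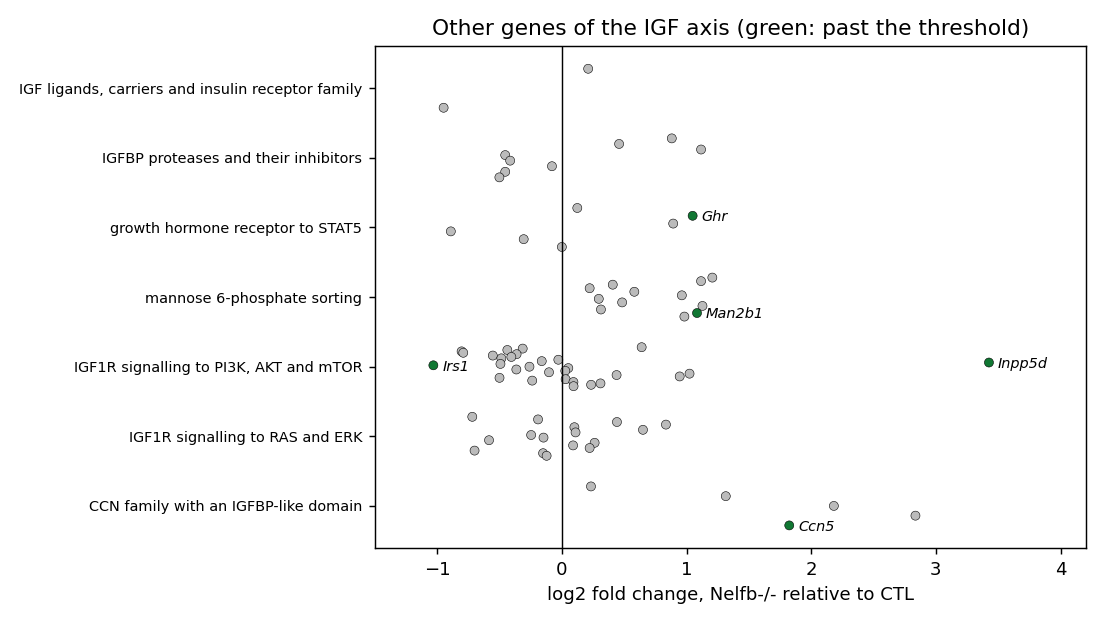
Log2 fold change in Nelfb-/- relative to CTL cells (horizontal axis) of each tested gene in the 7 pathway lists (rows), with genes past the threshold named in green. Of the 5 named genes, Irs1 lies left of 0 and Ghr, Man2b1, Inpp5d and Ccn5 lie right of it.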

How the data were processed

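The authors deposited 1 table of normalized values with 17924 genes. The sources name mm10 and, in the submitters' processing notes, STAR (2.7) and Partek (9.0.20.0202). The study left out genes under 10 reads, while read counting and strand handling are not given in the sources used here. The deposited values are in CPM: each column summed to 1e+06 after an offset of 0.0001 was subtracted. Low values rose in steps of 1 read, which gave the depths (17.2 to 29.4 M, where M is 1e+06). Only 69.1 to 71.7% of values up to 20 reads were whole within 0.02 read, so no count test was run. Columns were matched to libraries by name, and labels gave the groups.

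Values were multiplied by the geometric mean depth (22.3 M). Genes averaging 10 reads or more (0.448 CPM), 16252 in all, entered limma (version 3.58.1, under R 4.3.3) as log2(value + 1) with an abundance trend and a two-sided test, with Benjamini-Hochberg adjustment. Fold changes on this scale are understated for low genes. The script was tested on simulated data. Of the genes, 17519 were matched by symbol to GENCODE vM21 (GRCm38), and 99.0% of these had the same start and end. Genes named are the 9 genes, Nelfb, for each pathway list those past the threshold and otherwise the 2 with the largest change, the 5 most correlated with Igf1 and with Igfbp5, and neighbouring genes. Igfals, Pappa, Socs2, Cish, Gnptab, Stat5a, Stat5b, the pathway genes under the 2-fold limit, the adipocyte and fibroblast markers and the marker genes at the floor were picked for naming once their values had been seen. The 9 genes and the lists were chosen with earlier results of these data known. Protein sequences were not analysed here. Some genes of the lists are not reported here.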

Additional observations from a re-analysis of the deposited data

How the results depend on the processing

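Igf1 passed under every alternative tried, with adjusted p from 0.0034 to 0.049 in limma. The number of the 9 genes past the threshold was 2, and it was 1 without moderation of the variance, when Igfbp3 was lost (adjusted p = 0.072), and 1 to 2 with any library removed. Igfbp6 alone changed direction, to 0.26 without CTL replicate 3. The number of other pathway genes was 5. It was 3 with median-of-ratios scaling, 3 without the abundance trend, 1 without moderation, 16 without a limit on the fold change, and 0 to 7 when each library was left out. All genes past the threshold numbered 1824, and 684 without moderation (438 upward, 246 downward), with a range of 426 to 2479 when each library was left out (290 to 1703 upward, 136 to 776 downward); without a limit on the fold change 947 were lower. The labels do not say whether replicate numbers pair the libraries, and the main fit treated them as unpaired. Deviations from the group means correlated at 0.52, -0.39 and 0.52 between libraries with the same number, for replicates 1, 2 and 3. Between libraries with different numbers they correlated at -0.63 to 0.54. Deviations within a group depend on one another, so these values cannot decide whether the libraries are paired. With the replicate block 4 of the 9 genes passed, Igfbp2 (adjusted p = 0.034) and Igfbp5 (adjusted p = 0.013) being added, and 9 other pathway genes. Median-of-ratios scaling moved the median of all genes by -0.066. Pseudocounts and filters on low values changed no call among the 9 genes. Each of the 9 genes held at least 602 reads in every library, far above the floor of 3 reads.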

Other observations

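The genes next to the IGF genes were read in the same fit, and none of those tested passed the threshold. Spryd3, 8128 bases from Igfbp6, was at 20.7, 20.7 and 32.8 CPM in CTL and at 35.8, 47.3 and 52.1 CPM in Nelfb-/- cells (log2 fold change 0.88, SE 0.24, adjusted p = 0.055 in limma), while the Nelfb-/- libraries of Igfbp6 lay within the CTL range. Adcy1, 27580 bases from Igfbp3, was lower in every Nelfb-/- library (log2 fold change -0.82, adjusted p = 0.11 in limma), where Igfbp3 was higher. Polr2b, whose end overlaps that of Igfbp7, was at 56.2 to 62.3 CPM in CTL and 76.1 to 83.9 CPM in Nelfb-/- cells (log2 fold change 0.40, adjusted p = 0.069 in limma).

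The tensin genes Tns1, Tns3 and Tns4, which encode focal adhesion proteins, are the next genes listed beside Igfbp5, Igfbp3 and Igfbp4, at 1035347, 1217729 and 11286 bases. Tns1 was at 1339, 1073 and 979 CPM in CTL and at 962, 518 and 606 CPM in Nelfb-/- cells (log2 fold change -0.74, SE 0.29, adjusted p = 0.13 in limma), lower in each Nelfb-/- library, where Igfbp5 was higher in each. Tns3 overlapped between the groups (log2 fold change 0.40, adjusted p = 0.34 in limma), and Tns4 held at most 11 reads in any library. Top2a, a gene of dividing cells that lies 17055 bases from Igfbp4, was at 19.7, 18.1 and 86.6 CPM in CTL and at 14.4, 107 and 91.4 CPM in Nelfb-/- cells. CTL replicate 3 and Nelfb-/- replicates 2 and 3 were high for Top2a, as they were for Igfbp2, Igfbp7 and the fibroblast marker sum.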
